A study of Homo sapiens with 6 samples.

Results

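The enzymes that build cholesterol and fatty acids were followed as a set of 38 genes, listed by name in the order of the mevalonate, sterol and fatty acid steps. All 38 were among the 16306 genes of the deposited gene table, and all 38 were among the 12620 genes that passed the filter on low counts. The genes were listed by their role in the pathway, with earlier results of these data known. RNA was sequenced from PC9, a line of human lung adenocarcinoma cells whose EGFR carries an activating deletion, in 2 groups of 3 samples. The sh-NC group carries a negative control shRNA, and the shRBM10 group an shRNA that targets RBM10, an RNA-binding protein that regulates alternative splicing. No drug treatment, clone or time point is given for either group, the labels do not name which RBM10 shRNA was used, and neither they nor the methods say of these RNA samples that each came from its own culture, although the labels call them biosample replicates and the methods state in general that experiments were independent. If they share a culture, p-values measure technical spread only. The study compared the groups to find genes and lipid pathways that differ when RBM10 is low.

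Cholesterol is made from acetyl-CoA through mevalonate, isoprenoids and squalene, which is closed into lanosterol and trimmed to cholesterol by a series of oxidases and reductases in the endoplasmic reticulum. Fatty acids are made in the cytosol from the same acetyl-CoA by a carboxylase and a synthase, and are then desaturated, elongated and activated with coenzyme A for use in membranes. Sterol-regulated transcription factors of the SREBP family are known to drive many genes of both branches, and rapidly growing tumor cells use both to build membranes.

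RBM10 itself had 1431, 1183 and 1469 normalized counts in the controls (sh-NC replicates 1, 2 and 3) and 537, 515 and 672 with shRBM10 (libraries A, B and C), a log2 fold change of -1.24 (SE 0.229, edgeR adjusted p = 0.1). Total counts lay between 18181904 and 18864243 in sh-NC and between 16606390 and 18526148 in shRBM10. Epithelial keratin and adhesion genes were high in every library. Of 13 markers of other cell types, 8 had a row, with summed counts of 2370 to 2532 in sh-NC and 1945 to 2677 in shRBM10, nearly all of it from CD68, CDH5 and COL1A1, and the 5 others summed to 1 to 10 and 5 to 13. PTPRC, the other leukocyte marker, had 0 to 7 counts, PECAM1, the other endothelial one, 1 to 3, and COL3A1, of fibroblasts, 0 or 1. Whether the counts of CD68, CDH5 and COL1A1 came from PC9 cells or from other cells was not tested. Fewer cells of a type and less RNA per cell cannot be told apart in bulk samples.

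Both groups held a library that stood apart. Over all detected genes, the median count was 181 in sh-NC replicate 2 and 290 to 334 in the other 5 libraries, and its 10 most abundant genes took the largest share of counts of all 6 libraries. Replicate 2 of sh-NC was the highest of its group for 18 enzymes and the lowest for 15, and it differed from the mean of replicates 1 and 3 by more than 1.5 times upward for 12 enzymes and downward for 7. Replicates 1 and 3 differed from each other by more than 1.5 times for 0 enzymes. Library C of shRBM10 was the closest of its group to the sh-NC mean for 33 of the 38 enzymes. Where leaving out sh-NC replicate 2 or library C moved the log2 fold change of a named gene by over 1.5 times, that value is given below as well.

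In control cells the levels of the enzymes, in TPM (the authors' value, scaled by transcript length and depth), spanned more than 2 orders of magnitude around a median of 23.1 TPM. SCD, the desaturase that makes oleate from stearate, was the most abundant, at 347 ± 153 TPM (SD, n = 3). FDFT1, which joins farnesyl units into squalene, followed at 275 ± 29.2 TPM, and FDPS, which makes farnesyl pyrophosphate, at 225 ± 9.94 TPM. These 3 did not differ beyond the spread of SCD. TECR, the last reductase of fatty acid elongation, the elongase ELOVL1 and DHCR7, the final reductase of cholesterol synthesis, also exceeded 100 TPM, while 8 enzymes were below 10 TPM. The lowest were the elongase ELOVL6 at 1.23 ± 0.734 TPM and SC5D, which places a double bond in the sterol ring, at 1.48 ± 0.601 TPM. HMGCS1, which condenses acetoacetyl-CoA into HMG-CoA, was at 4.31 ± 1.38 TPM, over an order of magnitude below FDPS and FDFT1, while ACAT2, the thiolase before it, was at 68.6 ± 6.87 TPM.

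**Figure D1:**
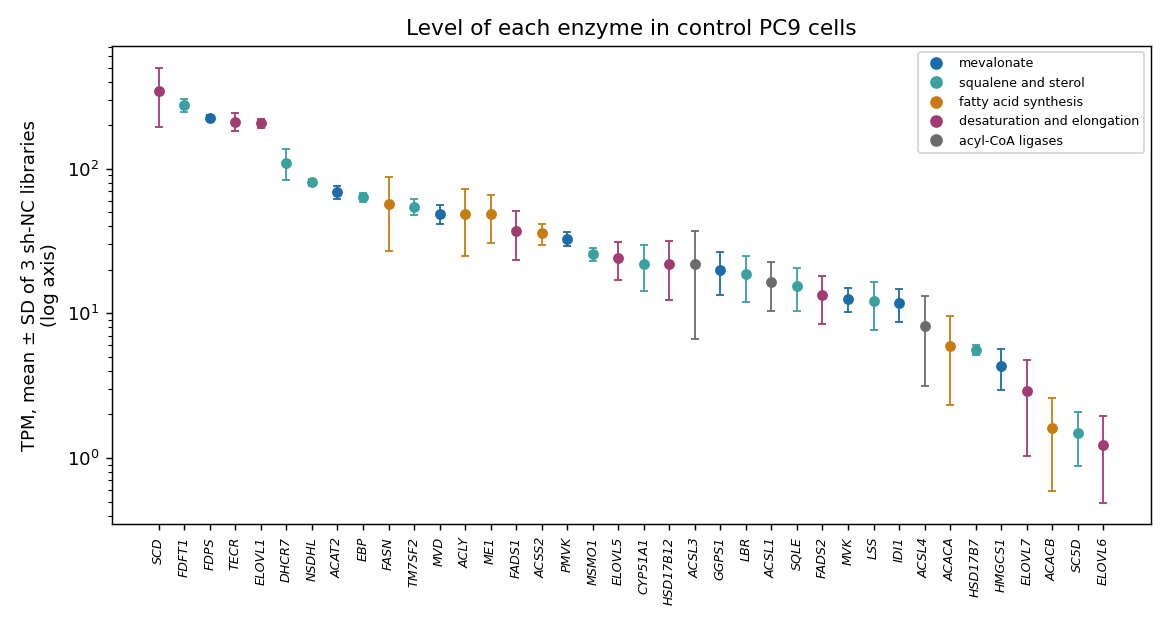
Level of each of the 38 enzymes in the 3 sh-NC libraries, in TPM on a log axis, with the mean as a point and the SD as a bar, colored by step of the pathway. Levels run from 347 TPM for SCD to 1.23 TPM for ELOVL6.

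With shRBM10 the 38 enzymes were split in direction. The fitted log2 fold change was above 0 for 18 enzymes and below 0 for 20, and its median was -0.05, beside 0.03 over all genes tested. Counting as called a log2 fold change beyond 1 in size whose adjusted p was under 0.05, edgeR called 0 enzymes and 2 of all genes (0.0158%), and adjusted p-values of the enzymes lay between 0.153 and 0.998. DESeq2 called 1 enzyme, SC5D (adjusted p = 0.0381), against 4.72% of all genes. At the study's limits, a log2 fold change beyond 1 in size whose unadjusted p was under 0.05, HMGCS1, SC5D, ELOVL6, ELOVL7 and HSD17B12 were higher in shRBM10, which is 13.2% of the enzymes against 10.1% of all genes. At these limits 0 enzymes were lower, against 1.53% of all genes.

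By the unadjusted p alone, 12 enzymes were under 0.05. The 7 higher enzymes were 18.4% of the set, against 15.7% of all genes, and the 5 lower ones were 13.2%, against 8.6%. The 3 shRBM10 libraries lay above all 3 sh-NC libraries for 8 enzymes (21.1%, against 13.8% of all genes) and below them for 9 (23.7%, against 16.2%). These 4 shares stood between 1.17 and 1.53 times the share of all genes. The 2 branches of the pathway had medians of -0.18 over the 20 mevalonate and sterol enzymes and 0.43 over the 18 fatty acid enzymes, and each branch held enzymes of both directions.

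**Figure D2:**
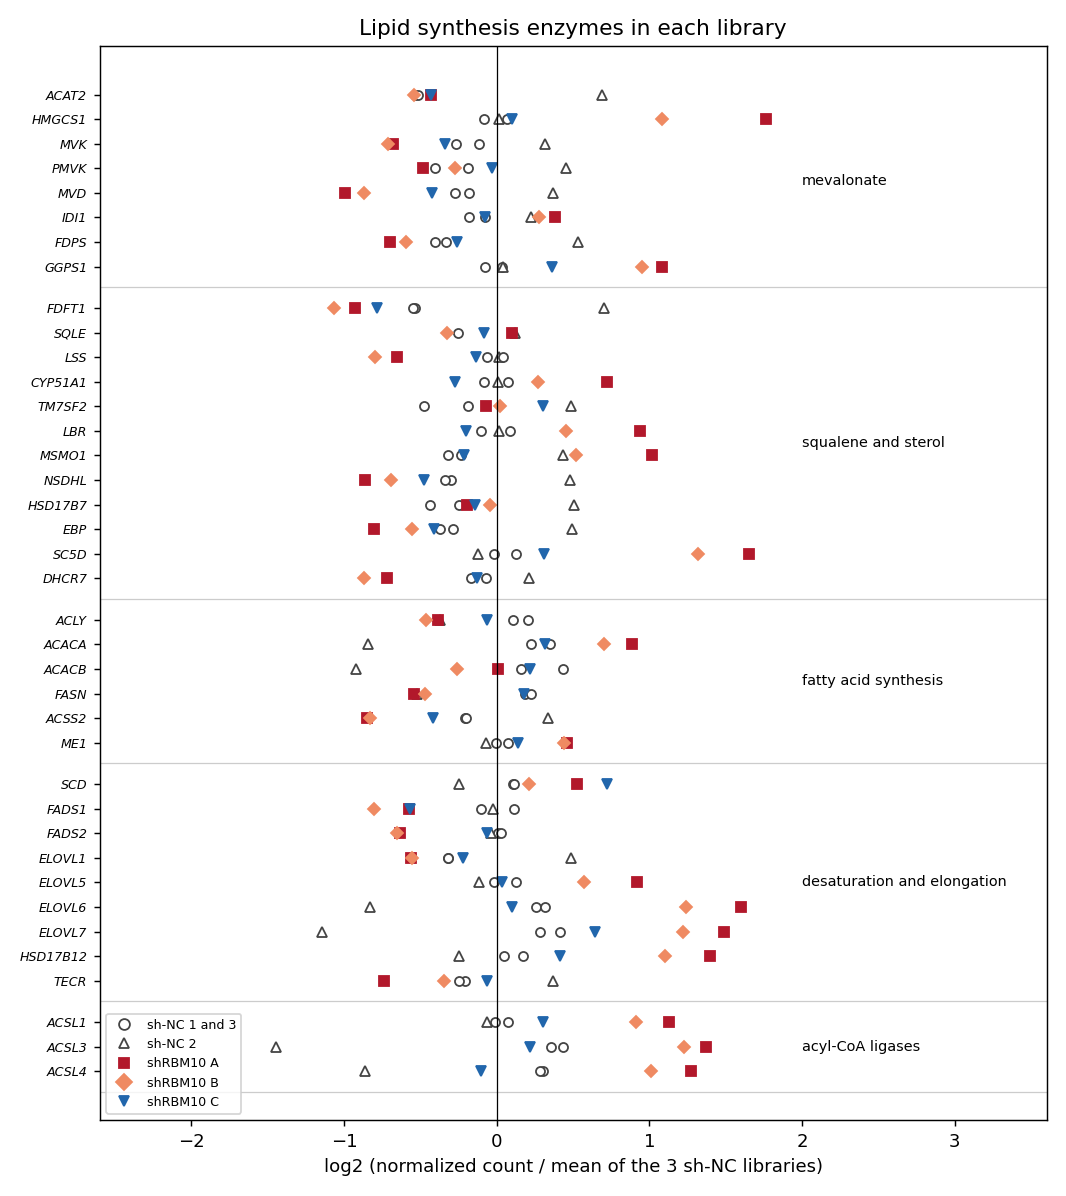
Each enzyme in each library, as the log2 ratio of its normalized count to the mean of the 3 sh-NC libraries, in pathway order from top to bottom. Open symbols are sh-NC libraries and filled symbols shRBM10 libraries. Library C lies nearest to 0 in 33 of 38 enzymes, and sh-NC replicate 2 is at an end of its group in most rows.

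Among the 8 mevalonate and isoprenoid enzymes, enzymes of both directions stood side by side. HMGCS1 (Entrez gene 3157, GRCh38 chromosome 5, 43287470 to 43313412) had 303, 323 and 336 normalized counts in the controls and 1088, 677 and 344 with shRBM10. Libraries A and B were well above the controls, and C exceeded the highest control by a small margin. The log2 fold change was 1.13 (SE 0.379, edgeR adjusted p = 0.158), a 2.19-fold higher level.

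GGPS1, which makes the geranylgeranyl chains attached to small GTPases, had 909, 915 and 843 normalized counts in the controls and 1884, 1721 and 1140 with shRBM10. The groups did not overlap, and the log2 fold change was 0.83 (SE 0.246, edgeR adjusted p = 0.153). MVD (chromosome 16, 88651940 to 88663091), the decarboxylase that makes isopentenyl pyrophosphate, went the other way. It had 1102, 1724 and 1177 normalized counts in the controls and 669, 730 and 996 with shRBM10, with a log2 fold change of -0.74 (SE 0.267, edgeR adjusted p = 0.17). Library C was the nearest to the controls, and the groups did not overlap.

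The other 5 enzymes of this stretch had an unadjusted p of 0.0640 or more. FDPS had 3127, 5990 and 3288 normalized counts in the controls and 2550, 2734 and 3454 with shRBM10, where library C lay above 2 of the 3 controls. Its log2 fold change was -0.51 (SE 0.296), and -0.22 without sh-NC replicate 2. MVK, the kinase that phosphorylates mevalonate, had a log2 fold change of -0.57 with groups apart. PMVK, the kinase after it, had a log2 fold change of -0.25 with overlapping groups, -0.04 without sh-NC replicate 2 and -0.40 without library C. ACAT2, with 1115, 2605 and 1129 normalized counts in the controls and 1199, 1108 and 1198 with shRBM10, was at -0.47 with all libraries and -0.02 without sh-NC replicate 2. IDI1, the isomerase of isopentenyl pyrophosphate, had a log2 fold change of 0.21 with overlapping groups. The median over the stretch was -0.36 with all libraries and -0.03 without sh-NC replicate 2.

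Of the 12 squalene and sterol enzymes, SC5D (Entrez gene 6309, chromosome 11) had the highest log2 fold change of all 38 in this fit. Other enzymes exceeded it in some alternatives. ELOVL7 did so under limma-voom, with the trend of GC content (below) removed, and without sh-NC replicate 1, sh-NC replicate 3 or library A. HMGCS1 did so without library B (1.16 against 1.13). With the GC trend removed, ELOVL6 was the highest of the 38, at 0.80. SC5D had 156, 145 and 172 normalized counts in the controls and 496, 393 and 196 with shRBM10. All shRBM10 libraries exceeded all controls, C by the least. The log2 fold change was 1.19 (SE 0.358, edgeR adjusted p = 0.153), a 2.29-fold higher level.

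FDFT1, at the branch point into sterols, had the lowest log2 fold change of the set, -0.92 (SE 0.355, edgeR adjusted p = 0.176). Its normalized counts were 6344, 14939 and 6283 in the controls and 4838, 4389 and 5335 with shRBM10. The groups did not overlap, but replicate 2 was far above the other controls, and without it the log2 fold change was -0.46. NSDHL, a dehydrogenase that helps remove methyl groups from the sterol ring, had 1622, 2789 and 1582 normalized counts in the controls and 1096, 1238 and 1437 with shRBM10, with replicate 2 again the highest control. Its log2 fold change was -0.67 (SE 0.275, edgeR adjusted p = 0.188), and -0.43 without that replicate.

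SQLE, the squalene epoxidase and a rate-limiting step of the sterol branch, had 583, 756 and 744 normalized counts in the controls and 743, 553 and 655 with shRBM10, with full overlap and a log2 fold change of -0.09 (SE 0.238), or -0.15 without library C. LSS, the cyclase that makes lanosterol, had 828, 874 and 891 in the controls and 550, 497 and 786 with shRBM10. Its groups were apart, with a log2 fold change of -0.50 (SE 0.248) and an adjusted edgeR p of 0.233, and the value was -0.77 without library C. The other 7 had an unadjusted p of 0.0682 or more. CYP51A1, LBR and MSMO1, which act on lanosterol and its products, had log2 fold changes of 0.30, 0.47 and 0.53. EBP and DHCR7, the isomerase and reductase near the end of the route, were at -0.58 and -0.54. TM7SF2, a reductase with the same activity as LBR, and HSD17B7, which acts after NSDHL, were at 0.09 and -0.12. Without sh-NC replicate 2, EBP was at -0.33, TM7SF2 at 0.34 and HSD17B7 at 0.13. Without library C, CYP51A1 was at 0.46, DHCR7 at -0.83 and TM7SF2 at -0.05, so both HSD17B7 and TM7SF2 changed sign with 1 library left out. GENCODE names 8 pseudogenes for FDPS, 3 for CYP51A1, 2 each for HSD17B7 and TECR and 1 each for SCD and FADS2, and counts of these enzymes are uncertain to the extent that reads were shared with such copies.

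**Figure D3:**
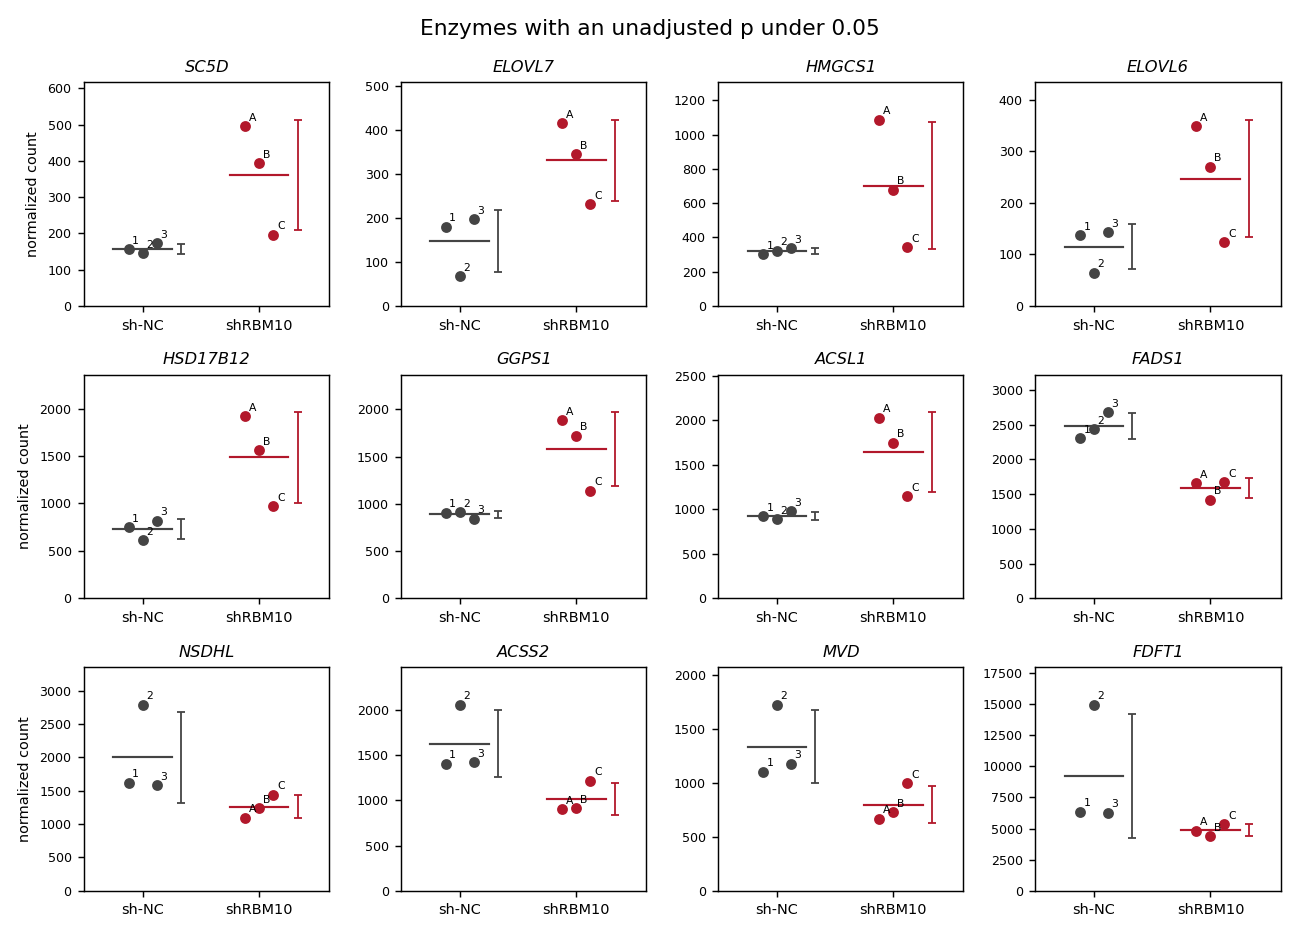
Normalized counts of the 12 enzymes with an unadjusted edgeR p under 0.05, in order of log2 fold change. Points are libraries (1 to 3 in sh-NC, A to C in shRBM10), lines are means and bars are the SD of 3 libraries. Library C is the nearest to the controls in 12 of 12 panels, and the groups overlap for ELOVL6 alone.

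Promoter windows of 33 of the 38 enzymes were found in RefSeq (GRCh38.p14), each with 250 bases before and 50 after the first listed start. No entry was found for ACAT2, FDFT1, SQLE, FASN and HSD17B12. Sterol-responsive promoters are known for CCAAT boxes, bound by NF-Y, beside sites for SREBP and Sp1. The letters CCAAT, on either strand, were in 19 of the 33 windows (57.6%, against 35.7% of 27305 genes), and the GC box GGGCGG in 27 (81.8%, against 44.6%). The E-box CACGTG was in 3 windows, those of ELOVL5, LSS and SC5D (9.09%, against 7.43%). The sterol regulatory element core TCACNCCAC was in 0 (against 1.15%). The 27305 genes of this background were not limited to the 12620 tested, nor matched to the enzymes by expression or GC content. Whether the higher shares of CCAAT and the GC box are particular to these enzymes was not tested. The 250 bases before the start are shown for 2 pairs of enzymes that act in the same stretch and differed in opposite directions. Capitals mark the CCAAT box, the GC box and the E-box named above, read on either strand. HMGCS1 is at chr5:43313413-43313662 on the minus strand, MVD at chr16:88663092-88663341 on the minus strand, SC5D at chr11:121292521-121292770 on the plus strand and NSDHL at chrX:152830813-152831062 on the plus strand.
HMGCS1: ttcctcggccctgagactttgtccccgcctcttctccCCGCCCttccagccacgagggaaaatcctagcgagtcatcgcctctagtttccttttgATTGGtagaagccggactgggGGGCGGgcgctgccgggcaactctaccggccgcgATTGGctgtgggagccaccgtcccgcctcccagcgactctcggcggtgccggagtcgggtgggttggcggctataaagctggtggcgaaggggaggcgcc
MVD: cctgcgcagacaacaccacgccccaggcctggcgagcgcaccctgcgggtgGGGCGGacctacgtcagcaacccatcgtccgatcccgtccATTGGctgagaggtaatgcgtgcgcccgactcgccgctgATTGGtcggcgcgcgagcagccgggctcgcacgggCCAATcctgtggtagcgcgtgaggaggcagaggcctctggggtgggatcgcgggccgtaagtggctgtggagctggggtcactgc
SC5D: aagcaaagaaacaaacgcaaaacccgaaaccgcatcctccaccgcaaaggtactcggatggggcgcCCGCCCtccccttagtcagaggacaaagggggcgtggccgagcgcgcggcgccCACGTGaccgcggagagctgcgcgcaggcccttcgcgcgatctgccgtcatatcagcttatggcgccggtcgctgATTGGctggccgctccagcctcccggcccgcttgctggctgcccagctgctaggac
NSDHL: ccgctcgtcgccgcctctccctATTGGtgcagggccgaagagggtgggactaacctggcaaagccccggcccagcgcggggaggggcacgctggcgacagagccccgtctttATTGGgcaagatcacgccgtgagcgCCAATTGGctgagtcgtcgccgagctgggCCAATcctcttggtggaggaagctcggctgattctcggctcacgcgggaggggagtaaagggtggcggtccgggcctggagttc
HMGCS1, higher in shRBM10, held 2 CCAAT boxes, and MVD, lower in shRBM10, held 3. SC5D, the higher sterol enzyme, held 1, and NSDHL, the lower one, held 5, of which a pair overlap head to head. CCAAT was found in 2 of 6 windows of the enzymes that were higher with an unadjusted p under 0.05 and in 3 of 4 of those that were lower, counts too small to compare. Median GC content of the windows was 66.5% in the former and 68.2% in the latter.

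The 6 enzymes that supply and use acetyl-CoA for fatty acid synthesis held 1 with an unadjusted p under 0.05 (16.7%, against 24.3% of all genes), ACSS2. This ligase, which makes acetyl-CoA from acetate, had 1407, 2058 and 1419 normalized counts in the controls and 904, 915 and 1218 with shRBM10. The groups did not overlap, with a log2 fold change of -0.68 (SE 0.249, edgeR adjusted p = 0.17). FASN, the synthase itself, had 8205, 5021 and 8404 in the controls and 4959, 5197 and 8154 with shRBM10.

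The FASN counts formed a high and a low set in both groups, the low ones being sh-NC replicate 2 and shRBM10 A and B, and its log2 fold change was -0.24 (SE 0.301), or -0.52 without sh-NC replicate 2 and -0.57 without library C. ACACA, the carboxylase that makes malonyl-CoA, had 972, 463 and 1058 normalized counts in the controls and 1534, 1352 and 1035 with shRBM10. Library C lay inside the control range, and the log2 fold change of 0.65 (SE 0.324, edgeR adjusted p = 0.235) was 0.28 without sh-NC replicate 2. ACACB, its mitochondrial counterpart, and ACLY, which makes acetyl-CoA from citrate, were at 0.00 and -0.29. Without sh-NC replicate 2 they were at -0.38 and -0.53, and without library C at -0.19 and -0.48. ME1, the malic enzyme that supplies NADPH, had a log2 fold change of 0.35 with groups apart and an adjusted edgeR p of 0.296.

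Desaturation and elongation held 4 of the 12 enzymes with an unadjusted p under 0.05, 3 of them higher. In both directions together this was 44.4% of the 9 enzymes of the stretch, against 24.3% of all genes. With the trend of GC content (below) removed, 1 of the 9 was under 0.05 (11.1%, against 18.6% of all genes). HSD17B12 (Entrez gene 51144, chromosome 11), the ketoacyl reductase of the elongation cycle, had 752, 615 and 819 normalized counts in the controls and 1918, 1564 and 972 with shRBM10. The groups did not overlap, and its log2 fold change of 1.03 (SE 0.284) came with the smallest unadjusted edgeR p of the 38 (adjusted p = 0.153). The elongase ELOVL7 had 180, 67.1 and 198 in the controls and 416, 346 and 231 with shRBM10.

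ELOVL7 groups did not overlap, with a log2 fold change of 1.15 (SE 0.418, edgeR adjusted p = 0.17) that was 0.72 without sh-NC replicate 2. ELOVL6, which elongates palmitate, had 137, 64.4 and 143 normalized counts in the controls and 348, 270 and 123 with shRBM10, where library C lay inside the control range. Its log2 fold change was 1.10 (SE 0.441, edgeR adjusted p = 0.182), and 0.73 without sh-NC replicate 2. FADS1, a desaturase of polyunsaturated fatty acids, was lower, with 2307, 2436 and 2679 in the controls and 1660, 1420 and 1670 with shRBM10. For FADS1 all 3 shRBM10 libraries lay close together and below every control, with a log2 fold change of -0.64 (SE 0.208, edgeR adjusted p = 0.156).

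FADS2, the desaturase that acts before FADS1 and is its neighbor on chromosome 11, had a log2 fold change of -0.42 with groups apart and an adjusted edgeR p of 0.302, or -0.69 without library C. SCD had 29421, 23058 and 29577 normalized counts in the controls and 39441, 31624 and 45135 with shRBM10. All shRBM10 libraries were above all controls, here with C the highest, and the log2 fold change was 0.50 (SE 0.289, edgeR adjusted p = 0.287), or 0.31 without sh-NC replicate 2 and 0.32 without library C. ELOVL5, ELOVL1 and TECR were at 0.55, -0.44 and -0.36 with overlapping groups. Without sh-NC replicate 2, ELOVL1 and TECR were at -0.19 and -0.21, and without library C TECR was at -0.56.

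All 3 acyl-CoA ligases, which activate long-chain fatty acids, had a log2 fold change above 0. ACSL1 had 922, 887 and 977 normalized counts in the controls and 2029, 1745 and 1145 with shRBM10. The groups did not overlap, with a log2 fold change of 0.82 (SE 0.255, edgeR adjusted p = 0.155). ACSL3 and ACSL4 were at 1.02 (SE 0.469) and 0.83 (SE 0.406) with overlapping groups, and at 0.54 and 0.46 without sh-NC replicate 2, where their counts were the lowest of all 6 libraries.

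The direction of an enzyme went with the GC content of its transcripts. Of the 19 enzymes with the lower GC content (38.1% to 48.3%), 17 lay higher with shRBM10 (median log2 fold change 0.65), and the exceptions were SQLE and HSD17B7. Of the 19 with the higher GC content (48.8% to 65.3%), TM7SF2 alone was higher, and the median was -0.50. The same split held over all genes tested, with medians of 0.58 below and -0.24 at or above the median GC content of the enzymes. The 7 enzymes that were higher with an unadjusted p under 0.05 all had the lower GC content, and the 5 that were lower all had the higher GC content.

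Across the enzymes, log2 fold change and GC content had a Pearson correlation of -0.73 and a Spearman correlation of -0.70 (38 genes that share the same 6 libraries), beside -0.57 and -0.60 over 12559 genes. In single libraries set against the sh-NC mean, the Pearson correlation over the enzymes was -0.79 in A, -0.74 in B and -0.31 in C. Over all genes it was -0.66, -0.62 and -0.08. Inside the control group, replicate 2 set against the mean of replicates 1 and 3 had a Pearson correlation of 0.31 over the enzymes and 0.22 over all genes. The split was also present inside stretches of the pathway. All 3 lower-GC mevalonate enzymes were higher and all 5 others lower, and among desaturases and elongases the same held for 5 and 4. For fatty acid synthesis it held for 2 and 4. Among the squalene and sterol enzymes, 4 of 6 with the lower GC content were higher and 5 of 6 others lower. The exceptions SQLE, HSD17B7 and TM7SF2 all lay in that stretch. The 3 acyl-CoA ligases all had the lower GC content.

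**Figure D4:**
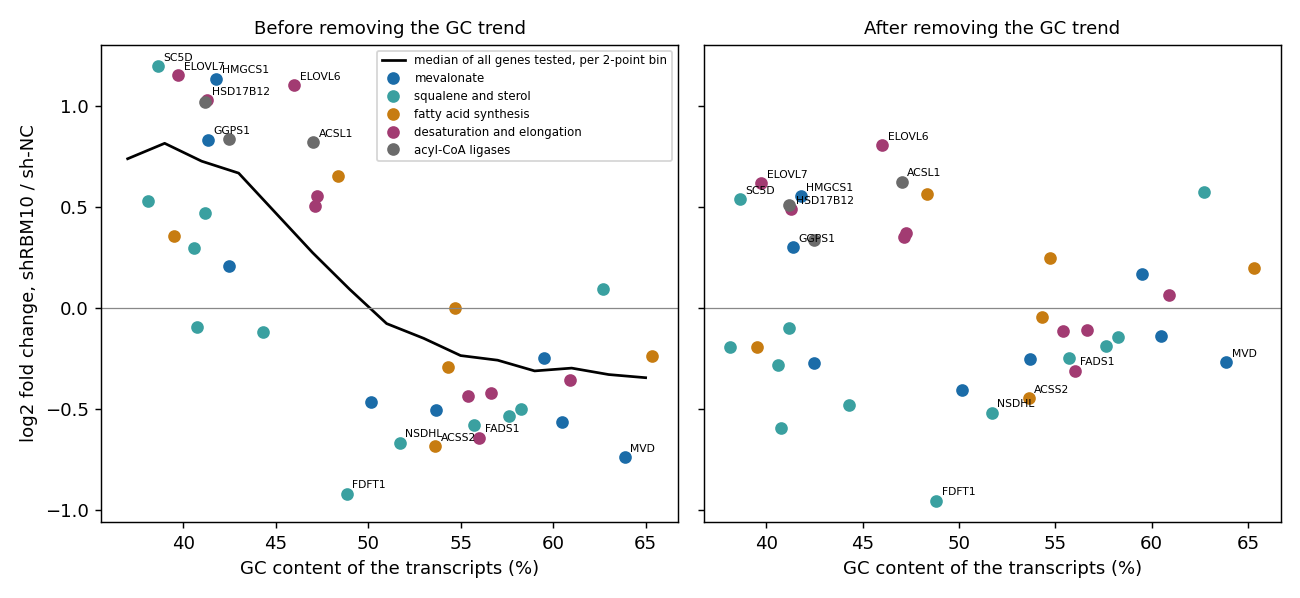
Log2 fold change of the 38 enzymes against the GC content of their transcripts, before (left) and after (right) removal of the trend with GC content, colored by step. The black line is the median of all genes tested per bin of GC content. Enzymes at the left are mostly above 0 and those at the right mostly below it before removal, and the Pearson correlation goes from -0.73 to -0.17.

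With the GC trend of each library removed, 4 enzymes were higher with an unadjusted p under 0.05 (10.5% of the enzymes, against 12.3% of all genes) and 2 were lower (5.26%, against 6.3%). The higher ones were SC5D, HSD17B12, ACSL1 and TM7SF2, with log2 fold changes of 0.54, 0.49, 0.62 and 0.57. The lower ones were FDFT1 and ACSS2, at -0.95 and -0.45. Adjusted p-values of the 38 in this edgeR fit were 0.175 or more. HMGCS1 was then at 0.55 and MVD at -0.27, both with an unadjusted p over 0.05, and 0 enzymes passed the study's limits. PMVK, IDI1, CYP51A1, LBR, MSMO1, ACACB, FASN, ME1 and TECR changed sign. In this fit the median log2 fold change was -0.22 over the 20 mevalonate and sterol enzymes (5 higher, 15 lower). Over the 18 fatty acid enzymes it was 0.29 (12 higher, 6 lower), and over all genes 0.10. The difference between the 2 branches was not tested. The cause of the relation with GC content was not tested.

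Of the 12 enzymes with an unadjusted p under 0.05, 12 kept it without shRBM10 library C, 11 without sh-NC replicate 2 and 5 without library A or without library B. GGPS1, SC5D, HSD17B12 and ACSL1 kept it whichever library was left out, and SC5D, HSD17B12 and ACSL1 kept it in all 14 alternative settings. The 12 were picked at this threshold in the same 6 libraries, so keeping it is partly built in, and the share of all genes that kept it was not counted. Over all genes, 24.3% were under 0.05 with all libraries, 24.4% without sh-NC replicate 2 and 36.2% without library C. At the study's limits, 5 enzymes passed with all libraries, 8 without sh-NC replicate 1, 7 without replicate 3 or without C, 2 (HMGCS1 and SC5D) without sh-NC replicate 2 or without B, and 0 without A. The share of all genes at these limits moved with them, from 11.6% with all libraries to 15.96% and 14.92% without sh-NC replicates 1 and 3, 16.8% without C, 6.35% without sh-NC replicate 2, 8.31% without B and 4.51% without A.

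Because RBM10 is a splicing regulator, the use of transcripts was compared as well. Of the 38 enzymes, 32 had 2 or more transcripts that could be compared, and 0 passed an adjusted Simes p under 0.05, against 0.0958% of all genes. Of 118 transcripts of these enzymes, 0 reached an unadjusted p under 0.05, against 473 of all 34374 transcripts tested (1.38%). The smallest Simes p was 0.430, for ELOVL5, whose minor transcript NM_001242831 took 1.67%, 6.83% and 2.00% of the gene's counts in the controls and 0.66%, 1.02% and 1.25% with shRBM10. The groups did not overlap there, but the highest control was replicate 2.

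FDFT1 and MVD came next in that order. Of FDFT1, the second placement of NM_001287748 took 7.68%, 6.09% and 5.04% of the counts in the controls and 0.00%, 3.45% and 4.27% with shRBM10. That of NM_001287750 took 2.00%, 1.00% and 1.54% in the controls and 3.86%, 4.28% and 3.38% with shRBM10. Both minor transcripts had groups apart, in opposite directions. Their unadjusted p-values in the transcript usage test (diffSpliceDGE) were 0.0990 and 0.145, and the Simes p of FDFT1 was 0.565. The share of all transcripts with groups apart was not counted. Of MVD, XM_011523088 took 0.00%, 0.00% and 0.92% in the controls and 1.99%, 0.00% and 2.51% with shRBM10, with overlapping groups. FDFT1 had 10 transcripts above the filter, 8 of which are second placements of an mRNA in the annotation, so the division of its reads between them is uncertain. A single transcript took more than 90% of the control counts in 14 enzymes, among them SCD, FASN, FADS1 and SQLE, and no transcript reached 50% in 9. The most abundant transcript was the same in both groups for 32 enzymes. It differed for HMGCS1, MVK, FDPS, ACACB, ELOVL6 and ME1, where several transcripts had similar shares: in HMGCS1 the main one, NM_002130, took 35.7% ± 31.0 in sh-NC and 24.6% ± 23.3 in shRBM10.

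The regulators of the pathway were described in the same fit, by a list of 31 genes of which 29 were tested. A log2 fold change above 0 was found for 14 and below 0 for 15, with 5 higher and 2 lower at an unadjusted p under 0.05. In both directions together these were 24.1% of the regulators tested, against 24.3% of all genes. edgeR called 0 of them (0.0158% of all genes). DESeq2, which called 4.72% of all genes, called PRKAA1 and ABCA1 (adjusted p = 0.0452 and 0.0295). SREBF1, which codes for the SREBP that favors fatty acid genes, had 4560, 3469 and 4447 normalized counts in the controls and 2382, 2644 and 4277 with shRBM10, with a log2 fold change of -0.42 (SE 0.276). SREBF2, the counterpart that favors cholesterol genes, was at -0.32 (SE 0.253). Without library C they were at -0.78 and -0.58, and without sh-NC replicate 2 SREBF2 was at -0.52. For both the shRBM10 libraries A and B were below every control and C was inside the control range.

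SCAP, the escort protein of SREBP, was at -0.44 (SE 0.231) with groups apart, and INSIG1, which retains SCAP in the endoplasmic reticulum, at -0.05 (SE 0.230). Without library C these were at -0.66 and -0.12, and INSIG1 was at 0.00 without sh-NC replicate 2. INSIG2, its relative, had 506, 509 and 528 normalized counts in the controls and 1035, 942 and 650 with shRBM10, a log2 fold change of 0.77 (SE 0.248, edgeR adjusted p = 0.156). MBTPS2, a protease that releases SREBP, and OSBP, an oxysterol-binding protein, were at 0.82 and 0.61, or 0.48 and 0.33 without sh-NC replicate 2. Of the AMP-activated kinase, which inhibits lipid synthesis, the catalytic subunit PRKAA1 was at 1.23 (SE 0.381, edgeR adjusted p = 0.155) and the subunit PRKAB1 at -0.86 (SE 0.244, edgeR adjusted p = 0.153), both with groups apart. The sterol exporter ABCA1 had 211, 46.6 and 193 normalized counts in the controls and 565, 515 and 304 with shRBM10, a log2 fold change of 1.61 (SE 0.502), while NR1H3, a sterol-sensing receptor that activates it, was at -0.78 (SE 0.296). With the GC trend removed, INSIG2 was at 0.11, SREBF1 at -0.02, SREBF2 at 0.00, NR1H3 at -0.36, MBTPS2 at 0.26 and OSBP at 0.40, all with an unadjusted p over 0.05. In that fit SCAP was at -0.05 with overlapping groups and INSIG1 at -0.27, also with an unadjusted p over 0.05. PRKAA1, PRKAB1 and ABCA1 were at 0.69, -0.71 and 1.61 and kept an unadjusted p under 0.05.

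For comparison, of 18 tested enzymes of fatty acid oxidation, the opposing pathway, 8 were higher and 10 lower, with a median log2 fold change of -0.09. ACADM, a dehydrogenase of medium-chain fatty acids, and ETFDH, which passes their electrons to the respiratory chain, were higher with an unadjusted p under 0.05, at 0.67 (SE 0.290) and 1.09 (SE 0.378), and 0 enzymes were lower at that threshold. In both directions together this was 11.1% of the 18, against 24.3% of all genes. ACADM was at 0.41 without sh-NC replicate 2. With the GC trend removed, ACADM was at 0.16 with an unadjusted p over 0.05, and ETFDH at 0.77 with one under it. The difference between this pathway and the synthesis enzymes was not tested.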

How the data were processed

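RNA-seq of PC9 cells (3 sh-NC and 3 shRBM10 samples, sequenced by BGI-Tech) was used as 2 deposited tables, 1 of 16306 genes and 1 of 76563 RefSeq transcripts. Per the file headers, the authors deposited estimated counts, TPM and other scaled values. The aligner, counting tool and annotation are not given in the sources used here, and the submitters' processing notes name the build hg38. The deposited estimated counts were rounded to whole numbers. The authors' TPM values were used for sh-NC levels only. Only 4 of the 6 count columns carry a sample's title, the 3 controls and library A of shRBM10 (its replicate 1), and the other 2, libraries B and C, were placed by the group in their name. In both tables, 33 per-sample columns and the authors' group means and comparisons were not used. The protocol text speaks of retinas and of 2 library kits, which is at odds with the cell line label, and assigns no kit to a library.

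Genes were kept by filterByExpr, normalized by TMM (normalized counts are scaled to the mean effective library size) and tested with edgeR's quasi-likelihood test (edgeR 4.0.16, limma 3.58.1, R 4.3.3) on all 6 libraries with no covariate, with Benjamini-Hochberg adjustment over all genes. Transcript usage was tested with diffSpliceDGE and a Simes p per gene. With 3 libraries against 3, an exact permutation test cannot go below 0.1 and was not used. Precision is limited by the 3 libraries per group at 16606390 to 18864243 counts each. GC content came from GENCODE 29 transcripts, found for 12559 of the 12620 genes tested (99.5%) and all 38 enzymes, and its trend was removed per library by a loess offset. Coordinates and promoters are RefSeq's on GRCh38.p14, matched by Entrez gene. Alternatives were DESeq2 1.42.0, limma-voom, 3 normalizations, 2 filters, GC removal and each library left out.

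All 38 enzymes are accounted for by step. Every library's value is given for those with an unadjusted p under 0.05, the 3 most abundant in sh-NC and HMGCS1, SQLE, LSS, ACACA, FASN and SCD, and, for the 3 enzymes with the smallest Simes p, for their transcripts with the smallest p. Of the regulators, 5 genes around SREBP and any with an unadjusted p under 0.05 are named. The members and lists were chosen with earlier results of these data known.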

Additional observations from a re-analysis of the deposited data

How the results depend on the processing

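The enzyme called by DESeq2 numbered 1, against 0 in edgeR and in the other 13 alternatives. The number of enzymes past the study's limits was 5 (11.6% of all genes passed). It became 2 with limma-voom (10.2% of all genes), 3 with scaling by library size only (8.85%) and 0 with the GC trend removed (5.24%). When single libraries were left out it ranged from 0 to 8, and the share of all genes from 4.51% to 16.8%. The number with groups apart was 17 (30.1% of all genes were apart), and became 9 with the GC trend removed (30.0%) and 31 without shRBM10 library C (63.5%). Leaving out another library gave 17 to 20, beside 32.5% to 46.8% of all genes. The median log2 fold change of -0.05 became 0.0588 with library size only, a scaling that also moved the median of all genes to 0.16, and ranged from -0.142 to 0.0619 with single libraries left out. Regulators past the study's limits numbered 2, and ranged from 1 (without sh-NC replicate 2 or shRBM10 library A) to 3 when single libraries were left out, beside the shares of all genes given above. Adjusted p-values of the 12 enzymes with an unadjusted p under 0.05 lay between 0.0381 and 0.579 over the 14 alternatives. Of all 38 enzymes, 26 kept their direction in all 14 alternatives, and 0 enzymes passed the transcript usage threshold in the 8 alternatives run. No paired analysis was possible because the columns of shRBM10 libraries B and C carry no replicate number. The lowest count of an enzyme in a library was 47, for ELOVL6 in sh-NC replicate 2, and the part of depth in these results was not tested.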
